A study of Zea mays with 2 samples.

Results

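One-sided anchors with several partners were analysed in the chromatin loop list of replicate 2. An anchor is the 10 kb bin at either end of a loop, and members were chosen by the loop calls themselves: an anchor on chromosomes 1 to 10 was a member when it took part in 3 or more loops whose other ends all lay on the same side of it. Of 27344 distinct anchors, 6439 took part in 3 or more loops, and 1353 of these were members. In all, 650 members were upstream-facing, with every partner at a lower coordinate, and 703 were downstream-facing, with every partner at a higher coordinate. The other 5086 anchors in 3 or more loops had partners on both sides and are called two-sided. The side without a called loop is called the quiet side of a member, and the opposite one its partner side.

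The data are Hi-C contacts from ground leaves of greenhouse-grown maize plants at stage v04, all of the inbred B73. There was 1 condition with 2 biological replicates, each a pool of leaves from 4 plants, so that each list is a mean over plants and over all cell types of the leaf. On chromosomes 1 to 10 the lists held 25628 loops in replicate 2 and 16863 in replicate 1, with a median of 32 and 21 contacts per loop. Replicate 2 anchors were all 10 kb wide, while replicate 1 anchors were 5, 10 or 25 kb wide and came from another version of the caller, so that replicate, anchor width and caller version cannot be told apart.

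Hi-C joins pieces of DNA that lay close together in the nucleus, and a loop is called where a pair of bins met more often than the surrounding bins. In large plant genomes such loops often join gene-rich islands that are separated by repeats, and several loops can share an anchor. Domains are stretches of chromosome whose parts met each other more often than they met the neighbouring stretch, and a domain boundary is the place where that preference changes. An anchor with all its partners on the same side can be pictured as the handle of a fan of loops that opens in a single direction.

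Most members lay just inside the threshold. In all, 1103 members (81.5%) had exactly 3 loops, 37 had 5 or more, and the largest had 7. Among anchors with 3 loops, 527 were upstream-facing and 576 downstream-facing, against 1334 with a single partner above and 1305 with a single partner below. Of anchors with 4 loops, 12.5% were one-sided (213 of 1704), and of those with 5 loops 4.82% (33 of 684). Just outside the threshold stood 3957 one-sided anchors with 2 loops and 3647 two-sided anchors in 3 or more loops that had a single partner on 1 side. Contacts per loop had a median of 37.0 in members with exactly 3 loops, 37.5 in one-sided anchors with 2 loops and 37.2 in those two-sided anchors. These numbers describe the choice, which used the sides and the loop counts themselves, and carry no test.

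**Figure D1:**
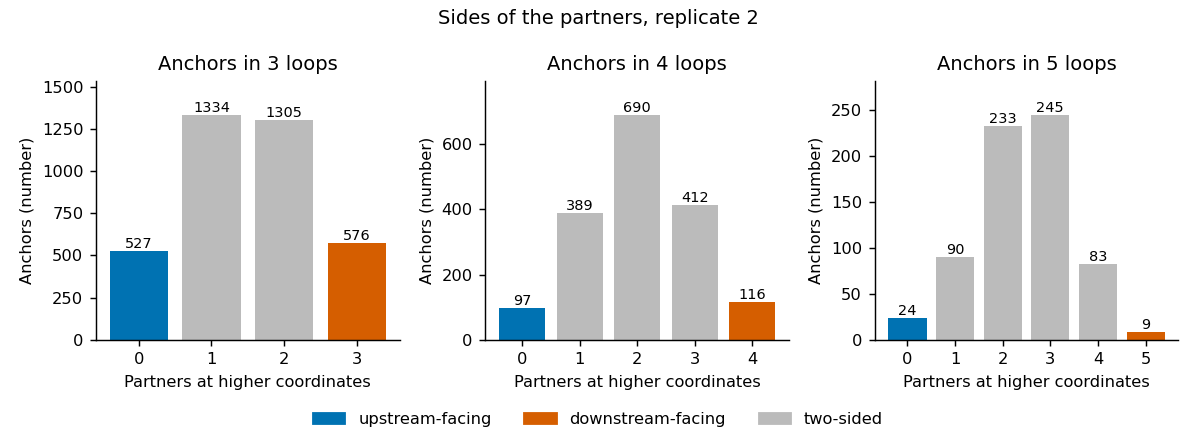
Number of replicate 2 anchors (vertical axes) by how many of their partners lay at higher coordinates (horizontal axes), for anchors in 3, 4 and 5 loops. Blue bars are upstream-facing members, orange bars downstream-facing members and grey bars two-sided anchors: members made up 1103 of 3742 anchors with 3 loops and 33 of 684 with 5 loops.

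The members were spread over all chromosomes and split almost evenly between the facings. The one-sided share of anchors in 3 or more loops was 21.0% (95% Wilson interval 20 to 22%) and ranged between 18.3% on chromosome 4 and 23.6% on chromosome 7. Upstream-facing members made up 48% of the members (45.4 to 50.7%), with a range of 44.4% on chromosome 2 to 50.6% on chromosome 1. Chromosome 1, the longest, held 125 upstream-facing and 122 downstream-facing members, and chromosome 9 held 46 and 49. When each chromosome was cut into 5 equal parts along its coordinates, the part at the high-coordinate end held 394 members and the second part held 156, yet the one-sided share lay between 20.2 and 22.4% in every part. Members were therefore frequent where anchors in 3 or more loops were frequent. Wilson intervals here and below cover counting error only, and anchors of 1 library are not replicates of each other.

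Member loops numbered 4154, or 16.2% of all replicate 2 loops, and the fans of both facings had the same shape. Neighbouring partners of a member lay a median of 80 kb apart in upstream-facing and in downstream-facing members (quartiles 50 to 140 kb and 50 to 150 kb). For partners on the same side of two-sided anchors the median was 90 kb (60 to 150 kb). No gap was below 30 kb in any of these groups. The distance between the nearest and the farthest partner had a median of 210 kb in upstream-facing and in downstream-facing members. In 807 members (59.6%) the gap between the second and the third partner was wider than that between the first and the second. This share was not counted for other anchors.

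Contacts fell along the fan, while the excess over the local background did not. Counted outward, the first 3 partners of upstream-facing members lay at median distances of 70, 160 and 270 kb, and those of downstream-facing members at 70, 160 and 280 kb. The same 3 loops had median contacts of 50, 32 and 21 in upstream-facing members. In downstream-facing members they had 48, 32 and 21. The ratio of contacts to the number expected from the ring of bins around the loop had medians of 4.43, 4.86 and 5.12 in upstream-facing members and 4.44, 4.95 and 5.11 in downstream-facing members. The nearest partner had the most contacts in 937 members (69.3%), and contacts fell with every further partner in 660 (48.8%), shares not counted for other anchors. Contacts decide which loops are called, and so these values are a description.

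**Figure D2:**
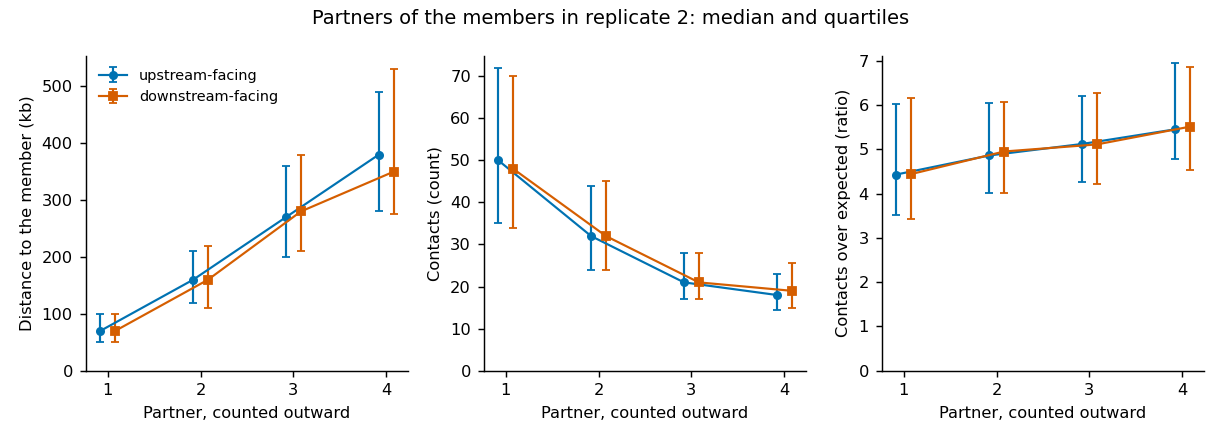
Distance to the member in kb, contacts, and contacts over those expected (vertical axes) for the first to the fourth partner counted outward (horizontal axes). Points are medians and bars quartiles over upstream-facing (blue circles) and downstream-facing (orange squares) members: contacts fell outward to 21 at the third partner of both facings, while the ratio to expected contacts was 5.12 and 5.11 there.

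The partners of members were shared with other loops about as often as those of two-sided anchors. Of 4351 places in the fans, 2359 (54.2%) were filled by an anchor with 3 or more loops of its own and 854 (19.6%) by an anchor with no other loop. Among partners of two-sided anchors these shares were 53.8 and 20.4%, and over all loop ends 45.7 and 27.3%. In 2547 places (58.5%) the partner also looped onward, away from the member, against 54.3% for partners of two-sided anchors and 48.8% over all loop ends. Neighbouring partners were joined by a loop of their own in 1152 of 2998 cases (38.4%), against 38.7% for two-sided anchors and 37.8% over all anchors. At least 1 loop between partners was present in 922 members (68.1%), a share not counted for other anchors.

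A few loops joined members that faced each other. In 197 loops the lower anchor was a downstream-facing member and the upper anchor an upstream-facing member, which involved 361 members. These loops had a median length of 260 kb and a median of 24 contacts, against a median length of 170 kb over all member loops. Both anchors lay at 1 level 0 domain, the outermost level of the nested domain calls, in 59.4% of these loops (117 of 197) and in 73.6% of the other member loops (2912 of 3957), a difference of -14.2 percentage points (95% Newcombe interval -21.3 to -7.44). With the domains of replicate 1 the difference was -15.3 points (-22.4 to -8.44). The larger length of these loops moves with this difference, and its part was not tested.

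Beside the members, on their quiet side, another anchor usually followed closely and looped the other way. The next anchor on the quiet side lay a median of 20 kb away for both facings, and the next one on the partner side 60 kb away. In 1089 members (80.5%) the next anchor on the partner side was the member's own nearest partner, and the shortest loop in the list was 40 kb, so that no partner could lie closer than that. The bin abutting on the quiet side was itself an anchor for 293 of 650 upstream-facing members (45.1%) and 332 of 703 downstream-facing members (47.2%). Over all anchors, the abutting bin was an anchor in 20.4% of cases below and 20.4% above, and over two-sided anchors in 13.3 and 13.6%. On the partner side the abutting bin was an anchor for 27 upstream-facing members (4.15%) and 30 downstream-facing members (4.27%). An abutting bin had loops toward the quiet side in 42.5% of upstream-facing and 44.2% of downstream-facing members, a measure not counted for other anchors. The next anchor on the quiet side looped only away from the member in 1062 of 1353 cases (78.5%), both ways in 164 and only in the direction of the member in 125. The next anchor looped only away for 35.4% of all anchors below and 35.1% above, and for 25.4 and 25.9% of two-sided anchors. One-sided anchors with fewer loops shared the pattern. The quiet-side abutting bin was an anchor for 43.0% of those with 2 loops and 33.9% of those with 1 loop, and their next quiet-side anchor looped only away in 67.1 and 51.5%. How much of this follows from taking anchors without loops on 1 side was not tested.

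**Figure D3:**
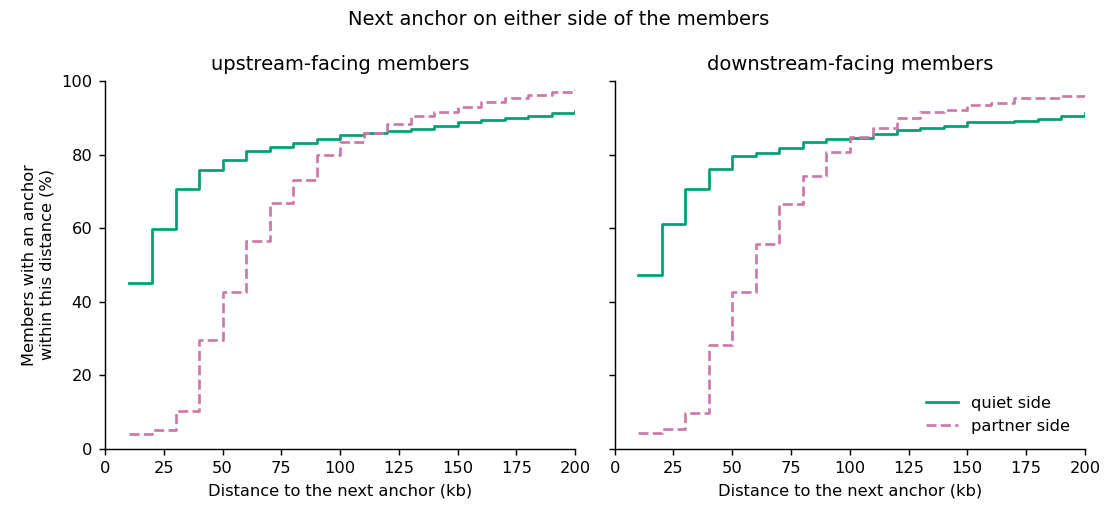
Share of members in % (vertical axes) that had another replicate 2 anchor within the distance in kb on the horizontal axes. Solid green lines are the quiet side and dashed purple lines the partner side: within 50 kb, 78.6% of upstream-facing members (left) had an anchor on the quiet side and 42.6% on the partner side, against 79.5% and 42.5% of downstream-facing members (right).

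Since the rule took anchors by exact bin, a member and its abutting neighbour count as separate anchors. When overlapping and abutting anchors were merged into blocks, 750 members (55.4%) lay in a block that was still one-sided and 603 (44.6%) in a block that was two-sided. No member lay in a block of the other facing, which follows from the merging, since a block keeps the loops of its member that leave the block. In 57 places an upstream-facing member was followed within 50 kb, as the next anchor, by a downstream-facing member, 35 times in the abutting bin. A domain boundary of replicate 2 lay between the outer edges of such a pair in 47 of the 57 places (82.5%, 70.6 to 90.2%), against 58.4% of all neighbouring anchors within 50 kb and 68.8% of those that looped only away from each other with any number of loops. With the domains of replicate 1 the count was 50 of 57 (87.7%, 76.8 to 93.9%), against 55.9 and 65.9%.

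Domain boundaries, which the rule did not use, lay more often on the quiet side of members when those at the anchor start were left out. Since domain coordinates and anchors share a 10 kb grid, the position of each anchor was expressed as its start minus the boundary, which is 0 kb when the boundary is the lower edge of the anchor and -10 kb when it is the upper edge. Two-sided anchors peaked at 0 kb (33.0%), and the offsets of -10 and 10 kb had 15.1 and 15.9%. Farther out their profile leaned to positive offsets, with 2.12% at -20 kb and 5.23% at 20 kb. The 0 kb offset was taken as the centre and counted on neither side. By edge, it lies on the partner side of upstream-facing members and on the quiet side of downstream-facing members. Upstream-facing members had 28.6% at -10 kb, 33.2% at 0 kb and 11.4% at 10 kb. The picture was mirrored in downstream-facing members, with 4.98% at -10 kb, 28.6% at 0 kb and 28.7% at 10 kb. At an offset of -20 kb stood 8.77% of upstream-facing and 0.142% of downstream-facing members (57 and 1 anchors), and at 20 kb 1.38 and 12.4% (9 and 87 anchors). Away from 0 kb, boundaries thus lay mostly above upstream-facing members and below downstream-facing members.

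**Figure D4:**
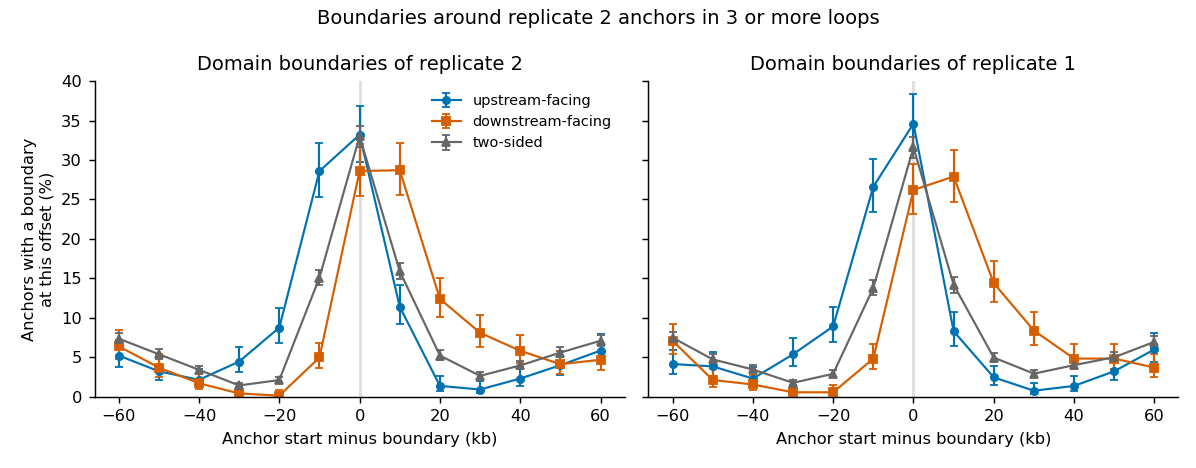
Share of replicate 2 anchors in % (vertical axis) with a domain boundary at each offset, given as anchor start minus boundary in kb (horizontal axes), for boundaries of replicate 2 (left) and replicate 1 (right). Bars are 95% Wilson intervals, with upstream-facing members in blue circles, downstream-facing members in orange squares and two-sided anchors in grey triangles: at -10 kb stood 28.6% of upstream-facing and 4.98% of downstream-facing members, and at 10 kb 11.4 and 28.7%.

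A boundary 10 to 50 kb below or above the start of the anchor was then sought on each side. Boundaries at 0 kb, where 33.2% of upstream-facing and 28.6% of downstream-facing members stood, were left out of both sides. On the quiet side one was found for 46.8% of upstream-facing members (304 of 650) and 58.7% of downstream-facing members (413 of 703). On the partner side the shares were 19.8% of upstream-facing members (129) and 11% of downstream-facing members (77). Over all anchors, 35.1% had a boundary at that distance below and 30.5% above, and over two-sided anchors 33.1 and 27.3%. Of 787 members with a boundary on 1 side only, 649 had it on the quiet side (82.5%, 79.7 to 85.0%). Quiet exceeded partner side on 10 of 10 chromosomes, with 47.9 to 59.0% of members against 10.6 to 21.3%. Anchors outside the threshold showed the same side: one-sided anchors with 2 loops had such a boundary on the quiet side in 49.4% of upstream-facing and 55.8% of downstream-facing cases, and anchors with 1 loop in 44.0 and 48.2%. The domains of replicate 2 came from the same library as the loops. Those of replicate 1, called from other plants, had a boundary only on the quiet side for 676 of 804 such members (84.1%, 81.4 to 86.4%).

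Direct contact with a boundary depended on where contact was measured. When an anchor counted as touching a boundary that lay inside it or up to 2 kb from its edges, 61.8% of upstream-facing members (402 of 650) and 33.6% of downstream-facing members (236 of 703) touched one, against 34.7% of all anchors. The difference was 28.3 percentage points (95% Newcombe interval 23.1 to 33.3), with upstream-facing members higher on 10 of 10 chromosomes. One-sided anchors with fewer loops differed in the same direction. With 2 loops the shares were 53.3 and 28.4% (24.9 points, 21.9 to 27.9), and with 1 loop 33.9 and 20.1% (13.8 points, 12.3 to 15.2). On this grid the 2 kb rule takes anchors at -10 and 0 kb but none at 10 kb, although two-sided anchors stood at -10 and 10 kb about equally often. With all 3 offsets counted, which means within 1 bin of the anchor start, 73.2% of upstream-facing and 62.3% of downstream-facing members had a boundary, against 47.9% of all anchors. Measured from the edges, this window reaches 1 bin below the anchor but not above it. It leaves out the offset of -20 kb, where 8.77% of upstream-facing and 0.142% of downstream-facing members stood. The difference was then 10.9 points (5.95 to 15.8), with upstream-facing members higher on 9 of 10 chromosomes, and at 0 kb alone it was 4.64 points (-0.285 to 9.55). Within 1 bin, the facings of one-sided anchors differed by 10.6 points with 2 loops (7.48 to 13.6) and 5.1 points with 1 loop (3.48 to 6.7). A boundary within 50 kb on either side was present for 91.5% of upstream-facing and 92.9% of downstream-facing members, against 80.4% of all anchors, a difference of -1.35 points (-4.27 to 1.52).

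Set against two-sided anchors by the 2 kb rule, the facings lay on opposite sides. Upstream-facing members touched a boundary 13.8 points more often than two-sided anchors (9.72 to 17.7), and downstream-facing members differed by -14.5 points (-18.2 to -10.7). These offset each other in the pooled shares of 47.2% of members and 48.1% of two-sided anchors (difference -0.938 points, -3.92 to 2.06). The two-sided group holds more anchors with many loops. Between anchors with exactly 3 loops, the shares were 46.9% of 1103 members and 43.2% of 2639 two-sided anchors, a difference of 3.64 points (0.146 to 7.13). Within 1 bin the 3-loop shares were 66.5% of members and 57.3% of two-sided anchors (difference 9.16 points, 5.76 to 12.5).

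Level 0 boundaries, those of the outermost domains, were more frequent within 1 bin of members. One lay within 1 bin of 46.2% of upstream-facing members, 49.8% of downstream-facing members and 35.4% of two-sided anchors, against 28.7% of all anchors. The difference between the facings was -3.63 points (-8.93 to 1.69). By the 2 kb rule the shares were 39.8% of upstream-facing members, 27.0% of downstream-facing members and 27.1% of two-sided anchors, against 21.0% of all anchors, and downstream-facing members then differed from two-sided anchors by -0.067 points (-3.45 to 3.54). The facings differed by 12.8 points (7.80 to 17.8) under that rule. Of the members within 1 bin of any boundary, 71.1% (650 of 914) had a level 0 boundary there, against 55.3% of two-sided anchors (1799 of 3256), a difference of 15.9 points (12.4 to 19.2). With the domains of replicate 1 the difference was 19.0 points (15.5 to 22.4). Among members within 1 bin of a boundary the share was 63.0% in upstream-facing and 79.9% in downstream-facing members (difference -16.9 points, -22.5 to -11.1), and with the domains of replicate 1 it was 67.0 and 79.0% (-12.0 points, -17.7 to -6.04). Of all anchors within 1 bin of a replicate 2 boundary, 7844 of 13109 had a level 0 boundary there. For one-sided anchors with 2 loops these counts were 761 of 1198 upstream-facing and 693 of 996 downstream-facing ones. Upstream-facing members thus had about the same share as upstream-facing anchors with 2 loops. Downstream-facing members had a higher share than downstream-facing anchors with 2 loops.

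Members with an abutting anchor that looped toward the quiet side lay at boundaries more often than the remaining members. Within 1 bin of a boundary were 80.1% of the 587 members with such a neighbour and 58.0% of the 766 without (difference 22.1 points, 17.2 to 26.8). Level 0 boundaries lay within 1 bin of 57.9% of the members with such a neighbour and 40.5% of those without (17.5 points, 12.1 to 22.7). Both differences were found with the domains of replicate 1 as well, at 22.4 points (17.3 to 27.2) and 15.5 points (10.2 to 20.8).

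Whether a touched boundary was a domain end or a domain start could hardly be compared, because domains abutted, and 392 of the 402 upstream-facing and 231 of the 236 downstream-facing members in contact touched an end and a start together. An end without a start was touched by 8 upstream-facing members (1.23%) and 2 downstream-facing members (0.284%), against 0.516% of all anchors, a difference of 0.946 points (-0.0154 to 2.14). Among sub-domains, which are nested in a level 0 domain, an end without a start was touched by 66 upstream-facing members (10.2%) and 32 downstream-facing members (4.55%), against 5.22% of all anchors. The difference was 5.60 points (2.84 to 8.48), while for starts without an end the shares were 7.69% of upstream-facing and 8.53% of downstream-facing members (-0.843 points, -3.77 to 2.11). These counts used the 2 kb rule, which takes no anchor at 10 kb.

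The fans often ran past the domain of their member. For loops at 1 level 0 domain, here and above, domains were widened by 2 kb at each end. Both anchors lay at 1 level 0 domain in 71.8% of the loops of upstream-facing members and 72.8% of those of downstream-facing members, against 77.9% of all loops (difference between facings -0.999 points, -3.66 to 1.66). Without the 2 kb the shares were 55.4 and 61.5%, against 63.4% of all loops (-6.12 points, -9.04 to -3.19). With the domains of replicate 1, also without the 2 kb, the facings differed by -6.64 points (-9.56 to -3.7). With the 2 kb, the share was 94.1% for the first partner of a member, 78.1% for the second and 51.1% for the third. All partners shared a level 0 domain with the member in 621 members (45.9%), and none did in 80 (5.91%). The shares by place and by member were not counted for other anchors. Set against loops of two-sided anchors (73.1%), the member loops (72.9%) differed by -0.229 points (-1.77 to 1.28). The groups overlap: in 1965 of 4351 fan places the partner was a two-sided anchor, and such loops count in both groups. The interval takes the groups as separate. The lengths and length classes that follow use the same overlapping groups. Member loops were longer, with a median of 170 kb against 140 kb. Among loops of over 100 and up to 200 kb, 79.3% of member loops and 74.1% of the loops of two-sided anchors lay at 1 level 0 domain, and among those of over 200 and up to 400 kb 56.5 and 53.4%.

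The side recurred in replicate 1, whose loops the rule did not use. A replicate 1 anchor overlapped 90.2% of upstream-facing members (586 of 650) and 90.3% of downstream-facing members (635 of 703) by at least 1 bp, against 88.2% of two-sided anchors with more partners on 1 side and 65.3% of all anchors. Replicate 1 loops ran only to the same side in 449 of the 586 upstream-facing members (76.6%, 73 to 79.9%) and 480 of the 635 downstream-facing members (75.6%, 72.1 to 78.8%). Loops to both sides were found for 123 upstream-facing and 136 downstream-facing members, and loops only to the opposite side for 14 (2.39%) and 19 (2.99%). The difference between the facings in the same-side share was 1.03 points (-3.77 to 5.80). On the 10 chromosomes the same-side share of members lay between 68.6 and 86.5%, and 1 to 6 members per chromosome were opposite.

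A one-sided anchor of any loop number kept its side as the only side in 70.6% of cases, so that the same-side share of the members, 76.1%, stood 7.80 points above that of anchors with 1 loop (68.3%, interval of the difference 5.10 to 10.4). Against one-sided anchors with 2 loops (73.7%) the difference was 2.39 points (-0.522 to 5.20). The opposite side was the only side in 2.70% of members, 6.77% of one-sided anchors with 2 loops and 15.4% of anchors with 1 loop. The difference between members and one-sided anchors with 2 loops was -4.06 points (-5.29 to -2.70). Two-sided anchors that had more partners on 1 side showed only that majority side in replicate 1 in 39.2% of cases, 36.9 points below the members (34.0 to 39.7). Since two-sided anchors were chosen for loops on both sides, the choice itself favoured this direction. When the rule was applied to replicate 1 and the members looked up in replicate 2, the same side alone was found for 38.9% (49 of 126) and the opposite side alone for 2.38%, against 17.6% for the majority side of two-sided anchors. The rest of these 126 members, the largest group, had loops to both sides in replicate 2.

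**Figure D5:**
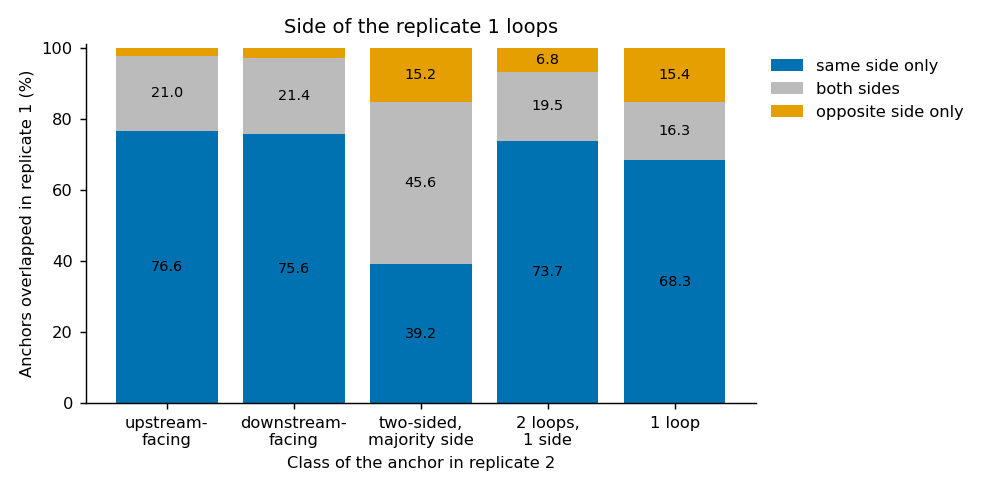
Share of replicate 2 anchors in % (vertical axis), among those that a replicate 1 anchor overlapped, whose replicate 1 loops ran to the same side only (blue), to both sides (grey) or to the opposite side only (orange), by class of the anchor in replicate 2 (horizontal axis). The opposite side alone was found for 2.39% of upstream-facing and 2.99% of downstream-facing members, 15.2% of two-sided anchors set against their majority side, and 15.4% of anchors with 1 loop.

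The outcome moved with how many loops replicate 1 had at a member. Of 471 members with a single replicate 1 loop, 444 (94.3%, 91.8 to 96.0%) had it on the same side. For anchors that had 1 loop in both replicates the share was 80.8% (4067 of 5035). With 3 or more replicate 1 loops, 151 of 323 members were one-sided to the same side (46.7%), 172 had both sides and none the opposite side only, which allows up to 1.18% (upper Wilson bound). Two-sided anchors with 3 or more replicate 1 loops showed their majority side alone in 11.4% (114 of 998).

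The width of replicate 1 anchors moved with the mixed cases. Of the replicate 1 loops at members, 93.6% of those with 5 kb anchors (720 of 769), 91.1% of those with 10 kb anchors (879 of 965) and 70.3% of those with 25 kb anchors (466 of 663) ran to the same side. A 25 kb anchor can cover the member and its abutting neighbour together, and the part of this in the mixed cases was not tested. With 5 and 10 kb anchors only, the same-side share of members was 88.4% (977 of 1105), and that of two-sided anchors with a majority side 45.9%. Members with an abutting anchor looping toward the quiet side had both sides in replicate 1 in 26.4% of cases, against 17.2% of the other members (9.23 points, 4.57 to 13.9). With 5 and 10 kb anchors only, the shares were 10.4 and 6.20% (4.17 points, 0.919 to 7.6).

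Single loops were found again less often than sides, by a stricter measure. A loop needed both anchors overlapped and was counted over all loops. A side needed only loops in that direction and was counted over overlapped members. A replicate 1 loop overlapped both anchors of 34.4% of distinct member loops (1431 of 4154), 32.0% of loops of two-sided anchors and 30.3% of all loops. Loops that join a member and a two-sided anchor count in each of these shares. The share was 44.9% for the nearest partner of a member, 37.5% for the second and 23.6% for the third. Counted over all places in the fans, loops that were found again had a median of 45 contacts in replicate 2, and those not found 25. Of the members, 330 had no partner found again, 627 had 1, 322 had 2 and 74 had 3 or more. A loop that was not found again was not called in replicate 1, which is no measure of its absence there. Contacts summed over the called loops were 440232 in replicate 1 and 1006093 in replicate 2. These sums depend on the calls themselves and are no measure of read depth.

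Single fans show the range. Coordinates are those of the B73 AGPv4 genome in the deposited lists, counted from 1, and no gene annotation of that build was used here. The member with the most loops was upstream-facing, at chr8:77010001-77020000. Its 7 partners lay 130, 190, 290, 430, 590, 780 and 900 kb below it, with 60, 43, 29, 20, 35, 27 and 16 contacts. Contacts did not fall steadily, and the fifth partner had more than the fourth. Replicate 1 had 3 loops to the same side here, which reached the partners at 130, 290 and 780 kb (23, 37 and 25 contacts), and none to the opposite side. In both replicates a level 0 boundary lay at the start of this bin.

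The upstream-facing member at chr10:88360001-88370000 had 6 partners, 80 to 1150 kb away. Its loops had 77, 16, 57, 19, 25 and 14 contacts counted outward, so that the second was weaker than the third. Replicate 1 had 3 loops to the same side and 1 to the opposite side. At chr5:53270001-53280000 an upstream-facing member had 5 partners between 50 and 310 kb away, with 89, 35, 77, 44 and 17 contacts, and it ended at a level 1 boundary in both replicates.

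Among downstream-facing members, neighbours on chromosome 3 had the most loops. The one at chr3:21870001-21880000 had 6 partners, 170 to 550 kb above it, with 109, 24, 28, 17, 17 and 18 contacts. Replicate 1 had 3 loops to the same side, but none of them reached the same partners. The one at chr3:21380001-21390000 had 6 partners 80 to 660 kb away, with 34, 41, 25, 28, 12 and 12 contacts, and 1 of these loops was found again. Both fans reached the same bin, chr3:22040001-22050000, with 109 and 12 contacts. Both members began at a level 0 boundary in both replicates. At chr10:76000001-76010000, also at a level 0 boundary, a member had 5 partners with 158, 28, 33, 59 and 27 contacts.

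The fans with the most same-side loops in replicate 1 and none on the other side included a pair that faced each other. On chromosome 1 the downstream-facing member at chr1:165600001-165610000 had loops of 53, 50, 130 and 25 contacts to partners 50, 90, 140 and 530 kb above it. The farthest of these partners was the upstream-facing member at chr1:166130001-166140000, whose own loops had 79, 22, 57 and 25 contacts at 120, 210, 390 and 530 kb. Both fans met in the bin chr1:165740001-165750000, with 130 and 57 contacts. Replicate 1 had 5 loops to the same side at each of them, and the loop that joined them had 32 contacts there. All 4 loops of the upstream-facing member and 3 of the 4 loops of the downstream-facing member were found again.

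The other members chosen in this way had 3 to 5 loops. At chr1:29950001-29960000 an upstream-facing member had 5 loops with 57, 44, 59, 22 and 19 contacts, of which 3 were found again. At chr2:228710001-228720000 an upstream-facing member had 5 loops, with 72, 44, 87, 25 and 21 contacts, and again 3 were found. The downstream-facing member at chr10:136480001-136490000 had 3 loops of 52, 21 and 54 contacts, and all 3 were found, with 34, 14 and 31 contacts. The one at chr1:97330001-97340000 had 3 loops of 36, 33 and 25 contacts, of which 2 were found.

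The widest fans held very long loops. At chr3:179870001-179880000 an upstream-facing member had partners 100, 340 and 480 kb away and another 15760 kb away. That last loop had 44 contacts, 758 times the number expected, against ratios of 3.48, 2.95 and 4.18 for the others, and it was not found in replicate 1. At chr1:248600001-248610000 a downstream-facing member had partners 50, 5320 and 12080 kb away, with 170, 32 and 21 contacts, and none of these loops was found again. Gaps of over 500 kb made up 1.47% of all gaps between neighbouring partners of members (44 of 2998).

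The narrowest fans spanned 60 and 70 kb. The upstream-facing one, at chr9:155110001-155120000, had partners 140, 170 and 200 kb away with 88, 49 and 45 contacts. The downstream-facing one, at chr7:134270001-134280000, had partners 50, 80 and 120 kb away with 38, 41 and 91 contacts, so that contacts rose outward. No loop of either was found again in replicate 1.

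Of the 33 members with only the opposite side in replicate 1, 27 had a single loop there and 6 had 2. At chr3:169430001-169440000 an upstream-facing member had 4 loops of 55, 37, 54 and 16 contacts, and replicate 1 had 1 loop, to the opposite side. At chr7:12810001-12820000 a downstream-facing member had 4 loops of 47, 17, 20 and 20 contacts, and replicate 1 again had 1 loop, to the opposite side.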

How the data were processed

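Hi-C libraries of both replicates were sequenced by the authors, and reads were filtered and mapped to B73 AGPv4 with Juicer. Loops were called by the authors with HICCUPS (juicer_tools 1.9.9 for replicate 1 and 1.14.08 for replicate 2), and hierarchical domains with HiTAD at default parameters. The deposited loop lists give whole-number counts of contacts, not normalized, the expected contacts as a signal, and q-values per loop. The deposited domain lists give start, end and a nesting level, a score with 0 for the outermost domains. Replicates were not pooled. Lists hold calls only, so an unlisted loop was not measured as absent, and the read depth behind the calls was not used here.

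From these lists, anchors were counted by exact coordinates, sides by whether the anchor was the lower or upper end, and distances between starts, with Python 3.11.15, numpy 2.4.6, pandas 2.3.3, scipy 1.17.1 and matplotlib 3.10.9. Code was checked on hand-made lists with known answers. Shares have 95% Wilson intervals and differences 95% Newcombe intervals. With 1 condition and 2 replicates no test over samples was possible. The members and the comparisons were chosen with earlier results of these data known. The regions named were, for each facing, the 3 members with the most loops (ties by summed contacts), the 3 with the most same-side and no opposite loops in replicate 1, the widest, the narrowest, and the member with the most loops among those with the opposite side only in replicate 1. Alternatives changed the q-value limit, loop length, number of loops, boundary distance, domain list, merging of anchors and overlap in replicate 1. A planned comparison of genes at the members was not run, since no annotation of AGPv4 was used here.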

Additional observations from a re-analysis of the deposited data

Results flagged for a closer look

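Chr0, the unplaced sequence of the assembly, was left out of the members, and its loops enter no comparison above, so that its one-sided anchors are given here as a signal in data not otherwise used. In replicate 2 it held 21 one-sided anchors in 3 or more loops, 11 upstream-facing and 10 downstream-facing, of 63 anchors in 3 or more loops (33.3%, 95% Wilson interval 22.9 to 45.6%). Coordinates on Chr0 do not give positions along a chromosome, so these sides were not compared with domain boundaries.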

How the results depend on the processing

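Depth limits what the lists hold, since weak loops are missing, and a member can lose its side when a further loop is called. The 2 lists differ in caller version and anchor width, and no sample of another condition was given. No paired analysis was possible because there was 1 group.

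The one-sided share of 21.0% was 22.7% with loops of 50 kb or more, 12.2% with abutting anchors merged, 9.27% with 4 or more loops and 39.7% with 2 or more loops. Without replicate 2, the rule applied to replicate 1 gave 23.9% (146 of 612 anchors), of which 42.5% were upstream-facing. The other 3 alternatives for that share, and 7 for the split between facings, stayed within the main interval. Boundary contact of members minus two-sided anchors, -0.938 points, was 6.09 points with level 0 domains only, 0.169 with replicate 1 domains, 3.53 within 1 bin and 3.64 between anchors with exactly 3 loops, and only the replicate 1 value had an interval that included 0. Contact within 1 bin and the 3-loop comparisons were chosen after seeing the data, as were all alternatives for the difference between facings, the quiet side and the level. The plan named no comparison of quiet sides or of boundary levels, and for boundary contact only that of members with two-sided anchors. The main comparison of boundary levels counts contact within 1 bin. The difference between facings, 28.3 points, was 4.64 points at 0 kb, where its interval included 0, and 10.9 to 30.2 points under the other 7 alternatives. The 10 kb distance gave the values of the 2 kb rule, since both lists lie on 1 grid. The end-only difference was 5.60 points with sub-domains only and 1.12 points (0.0976 to 2.38) with q-values of at most 0.01. The difference in loops at 1 level 0 domain, -0.229 points, was 1.87 points at 0 kb and -3.68 points (-5.52 to -1.87) with exactly 3 loops. The groups of loops behind it overlap, and the intervals take them as separate. The quiet-side share of 82.5% (5 alternatives, 80.4 to 86.5%), the level 0 difference (3, 14.0 to 19.0 points) and the median gap of 80.0 kb (3) kept their direction. The same-side difference of members minus two-sided anchors, 36.9 points, stayed above 0 under all 8 alternatives. The choice of both groups favoured this direction. The difference was lowest, 21.2 points (12.2 to 30.6), for members chosen in replicate 1 and looked up in replicate 2. Of these, 38.9% had the same side only and 2.38% the opposite side only, and the rest, the largest group, had both sides.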
